A study of Homo sapiens with 9 samples.

Results

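The data described here are the RNA-seq values of mRNAs that the study also measured by RT-qPCR, TAF7, PTPN12, GSTP1, SYMPK and MC1R. With them are SSRP1, whose protein was a nuclear marker on the study's Western blots, and TUBB3, joined to MC1R by a read-through transcript. DICER1, a further RT-qPCR target, is given only beside PTPN12. The members are every transcript of these 7 genes, plus the read-through transcript, in the deposited tables: 64 of 215170 transcripts, and 7 of the 56347 genes to which transcripts could be matched. RNA was taken from nuclear and cytoplasmic fractions of HEK293 cells, a human embryonic kidney line, after siRNA treatment. The 4 groups were control siRNA cytoplasm (1 library, replicate 2), control siRNA nucleus (3 libraries), cytoplasm after siRNAs against WTAP and KIAA1429 (2 libraries, replicates 1 and 2) and nucleus after the same siRNAs (3 libraries), the latter pair called RNAi here. Both target genes were depleted in the same RNAi cells, so an effect of either one alone cannot be told apart. Nothing states that replicates came from separate cultures, so p-values measure the spread between these libraries, which may be technical.

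WTAP and KIAA1429 (Virilizer, official symbol VIRMA) belong to the complex that directs the METTL3 and METTL14 methyltransferase to adenosines in mRNA, where it deposits N6-methyladenosine (m6A). The modification is found mostly near stop codons and in long internal exons, within short contexts of which GGACT is the best known. The study asked whether this complex affects export of mRNA from the nucleus. For each transcript the comparison that addresses it is the change in the nucleus to cytoplasm ratio, (RNAi nucleus/RNAi cytoplasm)/(control nucleus/control cytoplasm), called the ratio change below. TAF7, DICER1 and PTPN12 were chosen by the study as m6A-modified mRNAs, and GSTP1, SYMPK and MC1R as mRNAs without the mark.

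Estimated counts per library totalled between 11627403 and 19036141, and the matched genes held 83.07 to 88.31% of them. Levels are given as CPM, that is counts scaled to a common total after edgeR's TMM (trimmed mean of M values) normalization, and a call needs an absolute log2 change over 0.5 and a Benjamini-Hochberg adjusted p (FDR) under 0.1 in edgeR's quasi-likelihood test over all 16181 genes or 50857 transcripts tested. WTAP was at 24.1, 27.6 and 23.1 CPM in control nuclei and at 12.3, 14.3 and 15.6 CPM in RNAi nuclei, a log2 change of -0.83 (FDR = 0.0169), and VIRMA changed by -1.08 (FDR = 0.0314). In the cytoplasm the log2 changes were -1.72 for WTAP (FDR = 0.00079) and -2.07 for VIRMA (FDR = 0.00268). The nuclear-retained RNAs MALAT1, NEAT1, KCNQ1OT1 and TUG1 summed to 356.7 to 496.9 CPM in control nuclei and 521.7 to 536 CPM in RNAi nuclei, against 90.3 CPM in the control cytoplasm and 65.9 and 59.3 CPM in the RNAi cytoplasms. MALAT1 alone was at 13.8 CPM in the control cytoplasm and at 6.47 and 5.47 CPM in the RNAi cytoplasms, a log2 change of -1.20 (FDR = 0.0642). In the ratio change 3 of these 4 RNAs were called higher, with a median of 1.09, and the part that this difference between fractions has in the ratio changes below was not tested. The 13 mitochondrially encoded mRNAs held 112100 to 276900 CPM and none was called between siRNAs in either fraction. Of 6 HEK293 lineage genes, 4 had values (593.9 to 1769 CPM summed), and VIM made up most of the sum (454.5 to 1447 CPM). NEFM was at 95.5 to 264.1 CPM, ENO2 at 22.3 to 41.2 CPM and PAX2 at 9.68 to 26.4 CPM. The markers of blood, liver and endothelial cells reached at most 0.366 CPM in sum, with CD3E and HBB at 0 in every library. The median ratio change of all genes was -0.05 with TMM and 0.23 with library sizes alone, so gene values below are to be read against a shift of this size.

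The 7 genes differed widely in abundance. Per unit of length, as mean TPM (counts scaled by transcript length) over the 9 libraries, GSTP1 stood first at 679.2 (450.5 to 868.7), followed by SSRP1 at 141.5 (100.8 to 201.7) and SYMPK at 89.6 (68.4 to 126.9). TUBB3 was next at 18.2 TPM (13.1 to 24.0). PTPN12 at 5.62 (1.41 to 8.59), TAF7 at 4.14 (3.11 to 5.39) and MC1R at 1.52 (0.241 to 2.32) were lowest, and neighbours in this order overlapped in range except at 4 steps, from GSTP1 to SSRP1, from SYMPK to TUBB3, from TUBB3 to PTPN12 and from TAF7 to MC1R. Behind these values stood 82.6 to 193.7 estimated counts per library for TAF7, 39.0 to 193 for PTPN12 and 8.21 to 98.3 for MC1R, so the modified and unmodified genes of the panel were not matched in depth.

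The sequences that the isoform results turn on are shown here in the GRCh37 reference, on the strand of the gene and 5′ to 3′. The first set are the splice sites of SYMPK intron 14 (1051 nt), kept whole in the transcript ENST00000593504, and of SYMPK intron 22 (3237 nt), inside which ENST00000599460 ends, and the capitals mark the GT and AG at the intron ends.
SYMPK intron 14 5′ splice site, chr19:46332213-46332242, minus strand: agaccagaaggatggGTgagggggctgacc
SYMPK intron 14 3′ splice site, chr19:46331162-46331191, minus strand: ctccatctctggcAGgatcttcaccaaggt
SYMPK intron 22 5′ splice site, chr19:46324627-46324656, minus strand: aatccatcatcaaagGTgaggcgcttcccc
SYMPK intron 22 3′ splice site, chr19:46321390-46321419, minus strand: tccgcctcctcgcAGccaccaacctgtgct

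The end of ENST00000599460 is shown because the intron 22 sequence of this isoform runs to an annotated 3′ end. Its last 30 bases hold the polyadenylation signal AATAAA, in capitals, and 68.0% of the 16181 main transcripts of tested genes hold AATAAA or ATTAAA in their last 50 bases on the transcript strand. The annotated end of the spliced transcript ENST00000245934 holds neither in that window. The sequence quantified for it was 4195 nt long, against 4077 nt in the annotation used here, so the end searched may not be the one quantified.
ENST00000599460 3′ end, chr19:46322171-46322200, minus strand: ttctggctcAATAAAgacttcctggttgac

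The third set are the splice sites of GSTP1 intron 4 (365 nt), which is whole in ENST00000494593 and present in part in 3 other transcripts, with the intron ends in capitals.
GSTP1 intron 4 5′ splice site, chr11:67352229-67352258, plus strand: tgggccgcacccttgGTgagtcttgaacct
GSTP1 intron 4 3′ splice site, chr11:67352594-67352623, plus strand: tccacccaaccccAGggctctatgggaagg

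All 67 introns of the spliced main transcripts begin with GT and end with AG, so the splice sites of the kept introns do not differ from the others in these letters. SYMPK intron 14 is close to the median of the 26 SYMPK introns in length (median 1093.5 nt) and its GC content is 53.8%, against a median of 55.4%.

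The junctions that tell TUBB3 from the read-through transcript ENST00000556922 are shown next. Both end in the same TUBB3 exon 2, in capitals, and differ in the exon before it, which lies in MC1R for the read-through.
Read-through junction, chr16:89987131-89987145 and chr16:89998979-89998993, plus strand: ctcctgcaaaaggagTTCTGGGAAGTCATC
TUBB3 exon 1 to exon 2, chr16:89989852-89989866 and chr16:89998979-89998993, plus strand: cagatcggggccaagTTCTGGGAAGTCATC

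**Figure D1:**
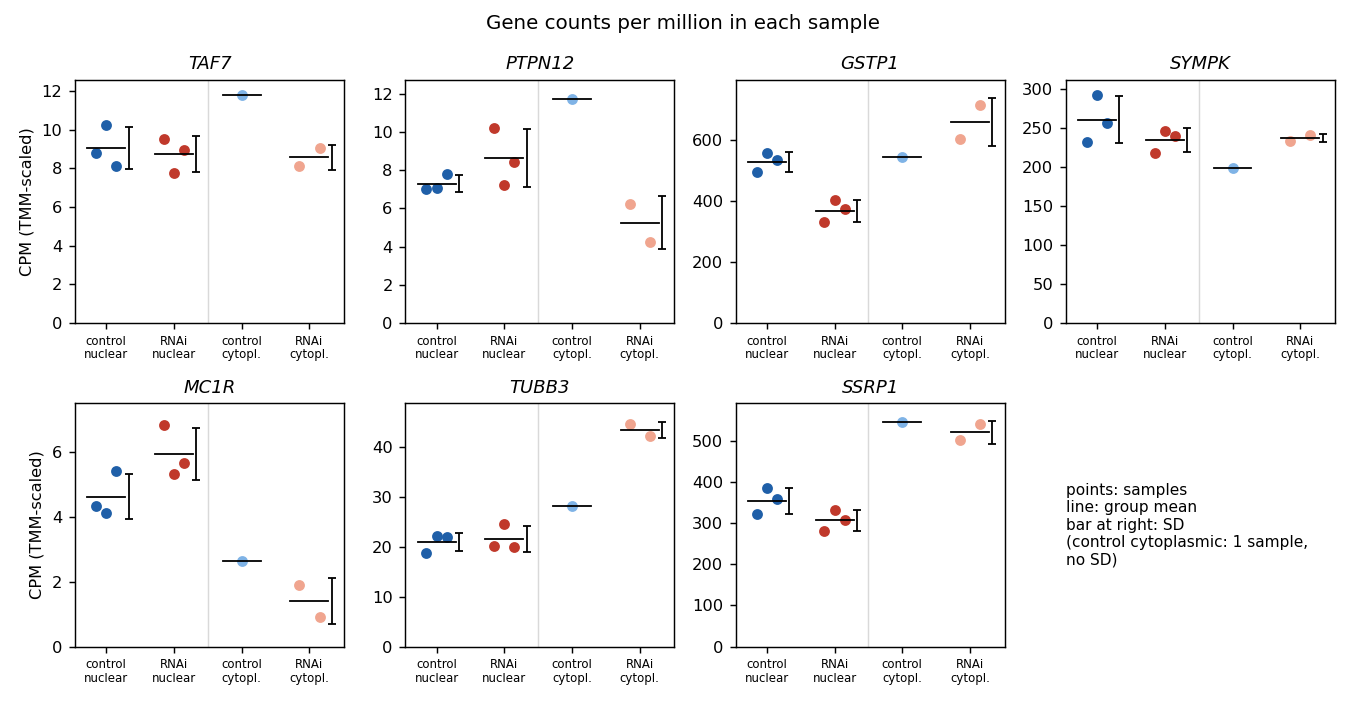
Gene-level CPM (y axes, linear and from 0, own scale for each gene) of the 7 genes in the 9 libraries (points) of the 4 groups (x axes), with group means and SD bars, cut at the axis where they reach below it (no SD for the single control cytoplasmic library). GSTP1 is at 330.9 to 402.9 CPM in the 3 RNAi nuclei, below the 494.5 to 560.1 CPM of the control nuclei, while PTPN12 is at 6.23 and 4.26 CPM in the RNAi cytoplasms against 11.8 CPM in the control cytoplasm.

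PTPN12 and GSTP1 were the members whose change in the nucleus to cytoplasm ratio was called, in opposite directions. The PTPN12 ratio rose 2.62-fold and the GSTP1 ratio fell 1.74-fold. In all, 2 of 7 genes were called, 1 higher and 1 lower, where 18.2% of all tested genes were called, 10.4% higher and 7.87% lower, and 5 of the 7 had an unadjusted p under 0.05. The other 5 had ratio changes between -0.58 (TUBB3) and 1.20 (MC1R) that did not pass the test. These calls depend on the fit. With the replicate number as a block SYMPK, MC1R and TUBB3 were called, and with library sizes alone GSTP1 was not.

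Taken by fraction, the calls were as follows. Between cytoplasms, 2 of 7 genes were called, PTPN12 lower and TUBB3 higher, where 24.6% of all genes were called. Between nuclei, GSTP1 was the 1 gene called, lower, where 4.89% of all genes were called. The ratio change is the nuclear change less the cytoplasmic one, which were 0.25 and -1.14 for PTPN12 and -0.52 and 0.28 for GSTP1, so both fractions enter it. GSTP1 was also the 1 gene of 7 whose RNAi and control nuclei did not overlap in CPM, which held for 28.1% of all genes. Each comparison between cytoplasms rests on a single control library, whose spread is taken from the replicated groups, and in these bulk fractions fewer cells and less RNA per cell cannot be told apart.

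**Figure D2:**
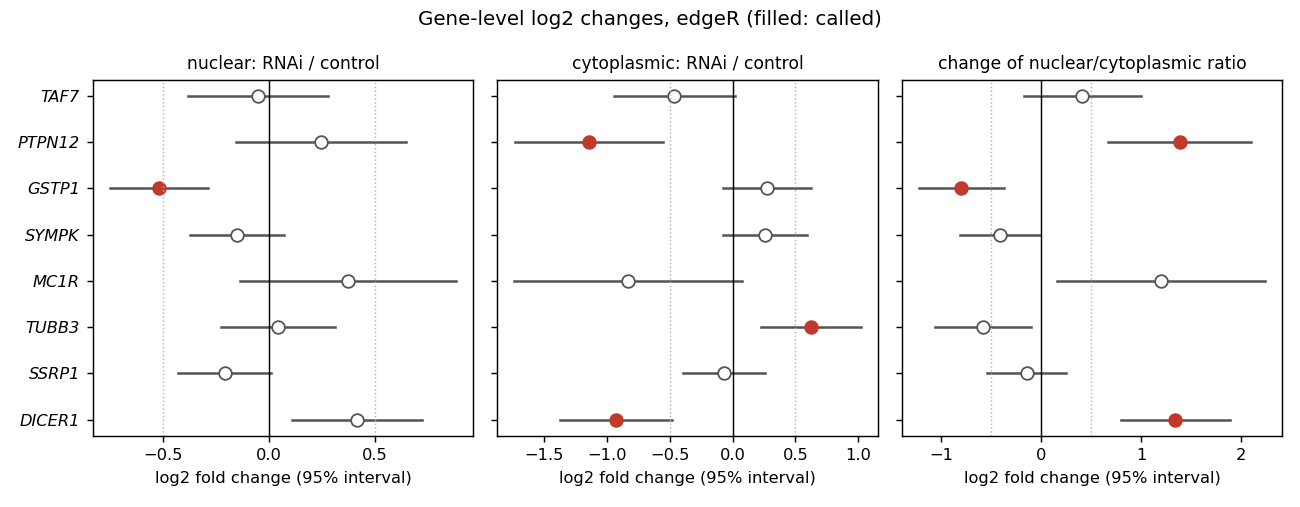
Log2 change with its 95% interval (x axis) for the 7 genes and DICER1 (y axis), for the nuclear, the cytoplasmic and the ratio change by edgeR's quasi-likelihood fit, with called changes as filled points and dotted lines at the threshold of 0.5 in either direction. The interval of the ratio change of PTPN12 runs from 0.67 to 2.10 and that of GSTP1 from -1.22 to -0.37, while those of TAF7 (-0.17 to 1.00) and SSRP1 (-0.54 to 0.25) include 0.

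PTPN12 encodes a cytosolic protein tyrosine phosphatase (PTP-PEST) that dephosphorylates adhesion proteins, and its mRNA has a long internal exon. Its gene lies at chr7:77166612-77269386 on the plus strand. The control cytoplasm held 11.8 CPM and the RNAi cytoplasms 6.23 and 4.26 CPM. The control nuclei held 7.04, 7.07 and 7.80 CPM and the RNAi nuclei 10.2, 7.23 and 8.42 CPM. Both RNAi cytoplasms were thus below the control cytoplasm, and the nuclei of the siRNAs overlapped. The cytoplasmic log2 change was -1.14 (SE 0.265, FDR = 0.0147 in edgeR's test), a fall of 2.21-fold, the nuclear change was 0.25 (FDR = 0.476), and the ratio change was 1.39 (SE 0.322, FDR = 0.0235). In control cells PTPN12 was lower in the nucleus than in the cytoplasm, with a log2 difference of -0.68 (FDR = 0.0371), and in RNAi cells it was higher in the nucleus, by 0.70 (FDR = 0.0160), a call that was lost without RNAi cytoplasmic replicate 2 (0.50, FDR = 0.111).

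DICER1, which encodes the endonuclease that releases mature miRNAs, was at 56.0 CPM in the control cytoplasm, 25.5 and 33.6 CPM in the RNAi cytoplasms, 29.4 to 40.4 CPM in control nuclei and 45.8 to 49.8 CPM in RNAi nuclei, which did not overlap. Its ratio change was 1.34 (SE 0.245, FDR = 0.00959), its cytoplasmic change -0.93 (FDR = 0.0114) and its nuclear change 0.42 (FDR = 0.124).

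No PTPN12 isoform carried the gene-level change by a test of its own. Of 16 PTPN12 transcripts in the files 4 were tested, holding 95% of the counts of the gene, and 4 were at 0 in every library. ENST00000435495 held 49.5% of the counts, at 4.95 CPM in the control cytoplasm, 4.69 and 1.95 CPM in the RNAi cytoplasms, 1.59, 3.99 and 5.81 CPM in control nuclei and 4.75, 1.82 and 4.84 CPM in RNAi nuclei. The RNAi nuclei all lay within the range of the control nuclei. ENST00000415482 held 24.5%, at 3.89 CPM in the control cytoplasm, 0.351 and 1.70 CPM in the RNAi cytoplasms, 2.21, 0 and 0 CPM in control nuclei and 3.09, 4.12 and 1.93 CPM in RNAi nuclei. Its ratio change was 3.96 with an SE of 2.52 (FDR = 0.564), with an estimate of 0 in 2 of the control nuclei.

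The mean of the PTPN12 gene in the RNAi cytoplasm fell by 6.497 CPM, from 11.8 to 5.25 CPM. The mean of ENST00000415482 differed by -2.86, that of ENST00000435495 by -1.63, that of ENST00000407343 by -1.01 and that of ENST00000248594 by -0.92 CPM. By these means the fall of the gene was spread over the 4 tested isoforms. They rest on the single control library, and edgeR called none of the 4 in the cytoplasm (FDR = 0.398 to 0.834). In the nucleus the means of ENST00000415482 and ENST00000248594 differed by 2.31 and -0.612 CPM, within a gene-level difference of 1.32 CPM. ENST00000407343 starts inside the long exon (exon 12, 971 nt, chr7:77256022-77256992), and ENST00000415482 and ENST00000248594 hold a 96-nt exon that ENST00000435495 lacks. The junctions into and past that exon are given because reads over them separate the isoforms, with the first bases of the downstream exon in capitals.
PTPN12 into the 96-nt exon, chr7:77210806-77210820 and chr7:77212872-77212886, plus strand: gcaaattttataaagGGCGTCTATGGGCCA
PTPN12 skipping the 96-nt exon, chr7:77210806-77210820 and chr7:77214860-77214874, plus strand: gcaaattttataaagATCATTGTAATGGCC

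TAF7 encodes a subunit of TFIID, the general factor that recognises promoters. Its 1 transcript in the files, which has no introns, chr5:140698057-140700351 on the minus strand, was at 11.8 CPM in the control cytoplasm and at 8.10 and 9.04 CPM in the RNAi cytoplasms. The control nuclei held 8.78, 10.3 and 8.13 CPM and the RNAi nuclei 9.55, 7.75 and 8.96 CPM. Both RNAi cytoplasms were below the single control cytoplasm and the nuclei overlapped. TAF7 did not pass the test in any of these comparisons: the log2 changes were -0.46 in the cytoplasm (FDR = 0.162), -0.05 in the nucleus (FDR = 0.884) and 0.41 in the ratio (SE 0.264, FDR = 0.344). The 95% interval of its ratio change, -0.17 to 1.00, includes both 0 and changes past the threshold of 0.5. TAF7 overlaps the pseudogene AC005618.1, which had 1.29 to 2.48 CPM. With these counts added to TAF7, an alternative chosen after seeing the data, the ratio change was 0.31 (FDR = 0.410).

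GGACT, searched on the transcript strand, occurs in the main transcript of every member, whichever class of the panel it belongs to. TAF7 holds 2 copies in 2295 nt and PTPN12 holds 3 in 2526 nt, 1 of them in the long exon. Of transcripts of like length (within 10%), 70.3% hold as many as TAF7 and 50.2% as many as PTPN12. SYMPK holds 6 in 4077 nt (21.6% of like-length transcripts hold as many), SSRP1 holds 5 in 2831 nt (20.9%), GSTP1 holds 2 in 741 nt (19.4%), TUBB3 holds 1 in 1706 nt (84.4%) and the coding MC1R transcript ENST00000555147 holds 4 in 2111 nt (22.4%). The lengths are those of the annotation used here, and some of the sequences quantified differed from them. For GSTP1 the sequence quantified was 965 nt long and for MC1R ENST00000555147 it was 3099 nt. A match is a description of letters and not a methylation call. The copies of the m6A-modified mRNAs of the panel are shown in capitals, for PTPN12 the copy in its long exon.
TAF7 GGACT, first copy, chr5:140699872-140699892, minus strand: agaggttgGGACTtggcattg
TAF7 GGACT, last copy, chr5:140698267-140698287, minus strand: tcattgcaGGACTttactgtt
PTPN12 GGACT in the long exon, chr7:77256476-77256496, plus strand: tcttgtgtGGACTgcagtgta

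GSTP1 encodes the pi-class glutathione S-transferase, an abundant cytosolic enzyme of detoxification, and was chosen by the study as an mRNA without m6A. The gene lies at chr11:67351213-67354127 on the plus strand. The control cytoplasm held 547 CPM and the RNAi cytoplasms 606.2 and 717.8 CPM. The control nuclei held 494.5, 560.1 and 534.5 CPM and the RNAi nuclei 330.9, 402.9 and 374.1 CPM. Each RNAi nucleus was below each control nucleus, and both RNAi cytoplasms were above the control one. The nuclear log2 change was -0.52 (SE 0.105, FDR = 0.0338), the cytoplasmic change 0.28 (FDR = 0.251) and the ratio change -0.80 (SE 0.191, FDR = 0.0268). With library sizes alone the ratio change was -0.51 and was not called (FDR = 0.288), and the nuclear call, just past the threshold of 0.5, was lost in 5 of 8 fits that each left out 1 library, namely control nuclear replicate 2 (-0.48) or 3 (-0.52, FDR = 0.132) or RNAi nuclear replicate 1 (-0.45, FDR = 0.114), 2 (-0.59, FDR = 0.101) or 3 (-0.53, FDR = 0.148).

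The nuclear fall of GSTP1 lay in 1 of its 2 main isoforms by CPM. ENST00000398606, with 7 exons, held 82.1% of the GSTP1 counts, at 407.1 CPM in the control cytoplasm and 514.5 and 595.4 CPM in the RNAi cytoplasms. It was at 435.5, 485.6 and 451 CPM in control nuclei and at 258.7, 341.4 and 277.6 CPM in RNAi nuclei. The RNAi and control nuclei of this isoform did not overlap. Its mean differed by -164.8 CPM between RNAi and control nuclei, where the mean of the gene as a whole differed by -160.4 CPM (369.3 against 529.7 CPM). The mean of ENST00000398603, which has 6 exons and held 16.03%, differed by 6.68 CPM, at 48.4, 60.4 and 69.8 CPM in control nuclei and 60.8, 52.8 and 85.1 CPM in RNAi nuclei, which overlapped.

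At the transcript level the spread between libraries was wider (biological coefficient of variation 0.5214, against 0.1381 for genes), and these 2 GSTP1 isoforms were not called. The nuclear log2 change of ENST00000398606 was -0.67 (SE 0.114, unadjusted p = 0.000531, FDR = 0.168 in edgeR's test), and its ratio change was -1.02 (FDR = 0.116). DESeq2's Wald test gave a nuclear change of -0.64 (FDR = 0.000126) and called it. The ratio change of ENST00000398603 was 0.60 (FDR = 0.5598). The usage test, edgeR's diffSpliceDGE, asks whether the transcripts of a gene change unequally. In the ratio change it called GSTP1 as a gene (FDR = 0.021), the 1 call among the 6 members with more than 1 tested transcript, where 5.49% of all such genes were called. It called none of the 27 member transcripts singly (2 at an unadjusted p under 0.05), where 0.570% of all were called. In this test ENST00000398603 had a usage change of 0.92 (unadjusted p = 0.00499) and ENST00000398606 one of -0.21 (unadjusted p = 0.489). The gene call thus does not single out ENST00000398606. Between nuclei the usage test did not call GSTP1 (gene FDR = 0.224).

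SYMPK encodes symplekin, the scaffold of the cleavage and polyadenylation machinery that forms mRNA 3′ ends. The gene lies at chr19:46318668-46366452 on the minus strand. The control cytoplasm held 198.5 CPM and the RNAi cytoplasms 233.9 and 241.2 CPM. The control nuclei held 232.1, 292.4 and 256.9 CPM and the RNAi nuclei 217.8, 246.6 and 239.3 CPM. The nuclei overlapped, and SYMPK was not called in the ratio (log2 change -0.41, SE 0.182, FDR = 0.173), in the nucleus (-0.15, FDR = 0.422) or in the cytoplasm (0.26, FDR = 0.262). The sign of its ratio change depended on the scale, since limma on log2(TPM + 1) gave 0.02.

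Below the gene level, the spliced SYMPK transcript was at lower CPM in every RNAi nucleus than in any control nucleus, and 1 transcript with intron sequence was at higher CPM, although edgeR called neither. ENST00000245934, the spliced transcript and 47.7% of the counts, was at 144.5 CPM in the control cytoplasm and at 190.6 and 169.7 CPM in the RNAi cytoplasms. It was at 105.1, 120 and 107 CPM in control nuclei and at 67.1, 48.9 and 61.2 CPM in RNAi nuclei. The nuclei did not overlap, and its mean in RNAi nuclei was 59.1 CPM against 110.7 CPM in control nuclei (SD 9.31 and 8.11, n = 3 each).

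ENST00000599460, which ends inside intron 22, differed in the other direction. It was at 4.66 CPM in the control cytoplasm, 6.61 and 4.63 CPM in the RNAi cytoplasms, 32.5, 39.7 and 42.7 CPM in control nuclei and 55.4, 63.1 and 59.9 CPM in RNAi nuclei. These nuclei did not overlap either, with RNAi higher. As a share of the SYMPK counts it took 14.01, 13.57 and 16.63% in control nuclei and 25.45, 25.59 and 25.04% in RNAi nuclei. Its last exon is 2573 nt long and holds 2471 nt of intron 22, up to the AATAAA shown above.

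ENST00000593504, which keeps intron 14, was at 16.2 CPM in the control cytoplasm and 13.3 and 16.7 CPM in the RNAi cytoplasms. It was at 50.2, 49.8 and 46.8 CPM in control nuclei and 46.4, 72.9 and 53.8 CPM in RNAi nuclei, which overlapped (log2 change 0.21, FDR = 0.811). Among the lesser transcripts ENST00000600237 was at 12.6 to 19.5 CPM in control nuclei and 16.3 to 22.2 CPM in RNAi nuclei. ENST00000598155 varied within groups, at 7.11, 43.0 and 18.2 CPM in the control nuclei and 4.64 and 39.7 CPM in the RNAi cytoplasms, so no direction can be read from it.

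**Figure D3:**
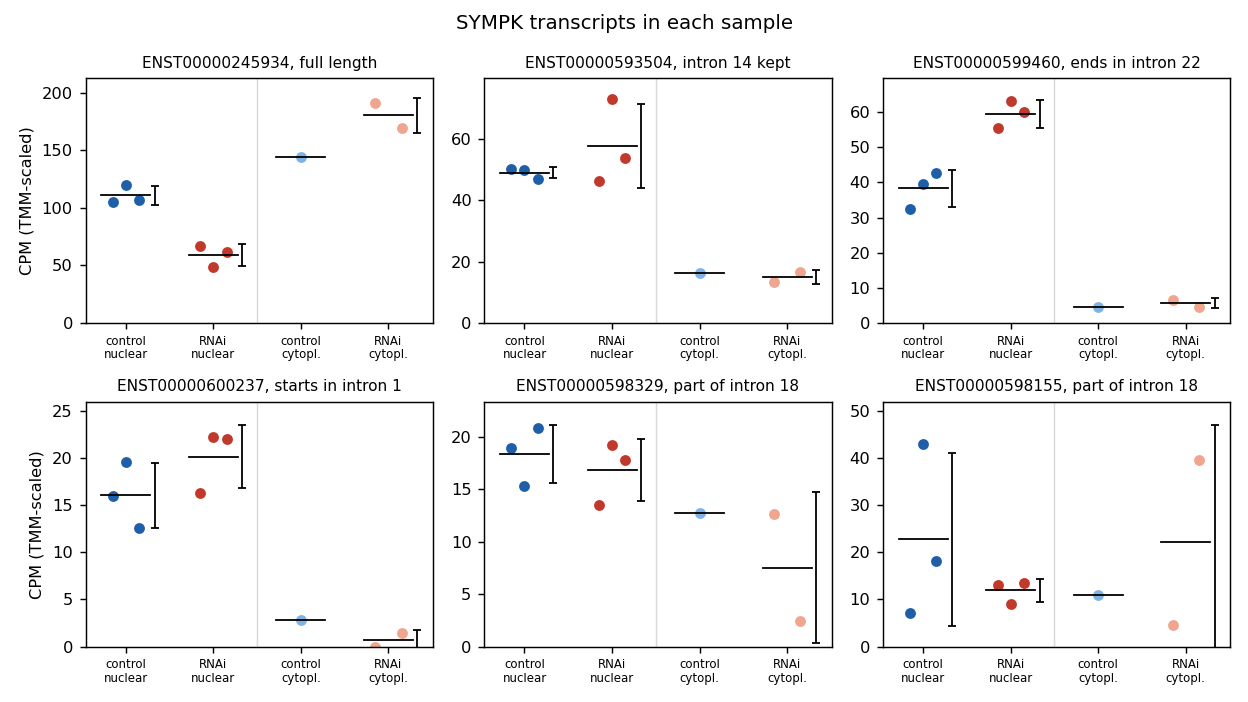
CPM of the 6 SYMPK isoforms with the most counts (y axes, linear and from 0, own scale for each) in the 9 libraries (points) of the 4 groups (x axes), with group means and SD bars cut at the axis. The spliced ENST00000245934 is at 48.9 to 67.1 CPM in RNAi nuclei and 105.1 to 120 CPM in control nuclei, while ENST00000599460 is at 55.4 to 63.1 CPM and 32.5 to 42.7 CPM in the same order.

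The nuclear log2 changes were -0.94 for ENST00000245934 (SE 0.138, unadjusted p = 0.000227, FDR = 0.140) and 0.61 for ENST00000599460 (SE 0.169, unadjusted p = 0.00837, FDR = 0.311), and edgeR called neither. No transcript of the whole table was called between nuclei (0%, with 4965 at an unadjusted p under 0.05), whereas DESeq2 called 1403. DESeq2 called both SYMPK transcripts, at -0.90 (FDR = 1.743e-07) and 0.64 (FDR = 0.00855). Over the 7 genes, 4 of 29 tested transcripts had nuclei that did not overlap, against 20.0% of all tested transcripts. They were ENST00000599460, higher, and ENST00000245934, ENST00000398606 and the GSTP1 transcript ENST00000467591, lower.

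In CPM the isoforms differed in both directions between nuclei, and the sum was negative. Between nuclei the mean of the gene differed by -25.9 CPM after RNAi (234.6 against 260.5 CPM), with ENST00000245934 at -51.7, ENST00000598155 at -10.8, ENST00000599460 at 21.2, ENST00000593504 at 8.76 and ENST00000600237 at 4.11 CPM. The 17 SYMPK transcripts other than ENST00000245934 all hold intron sequence, most of them only part of an intron. Together they took 27.2% of the SYMPK counts in the control cytoplasm and 18.5 and 29.6% in the RNAi cytoplasms. In nuclei they took 54.7, 59.0 and 58.3% with control siRNA and 69.2, 80.2 and 74.4% after RNAi. All RNAi nuclei were above all control nuclei. This share is the complement of the ENST00000245934 share, so it is not a result separate from that isoform. The two-sided exact permutation test gave p = 0.1, the smallest that 3 against 3 libraries allow, so it cannot decide. Over all genes, transcripts annotated as retained_intron took 4.33, 5.92 and 5.02% of the counts in control nuclei and 5.27, 5.67 and 5.57% in RNAi nuclei, which overlapped.

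SSRP1 encodes a subunit of the FACT histone chaperone, and its protein served the study as a nuclear marker on Western blots. Its gene lies at chr11:57093460-57103366 on the minus strand. The mRNA was at 545.9 CPM in the control cytoplasm, 501.2 and 540.7 CPM in the RNAi cytoplasms, 321.9, 384.5 and 357.2 CPM in control nuclei and 280.7, 332.3 and 306.8 CPM in RNAi nuclei. The cytoplasms were above all nuclei, and the nuclei of the siRNAs overlapped. The ratio change was -0.14 (SE 0.178, FDR = 0.647, 95% interval -0.54 to 0.25) and turned to 0.14 with library sizes alone. The cytoplasmic change was -0.07 (FDR = 0.789, 95% interval -0.39 to 0.26). ENST00000278412 held 98.2% of its counts, so the gene and this isoform had nearly the same values.

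Transcripts that hold introns lay on the nuclear side in GSTP1 and SSRP1 as well as in SYMPK. In GSTP1 the 5 such transcripts took 0.679% of the counts in the control cytoplasm, 0.338 and 0.329% in the RNAi cytoplasms, 2.15, 2.53 and 2.55% in control nuclei and 3.44, 2.16 and 3.04% in RNAi nuclei. In SSRP1 they took 0.514%, then 0.300 and 0.252%, then 1.20, 1.65 and 1.01%, then 1.53, 1.75 and 1.74% in the same order of groups. Nuclei and cytoplasms did not overlap in either gene, and RNAi and control nuclei did. Over all genes, transcripts annotated as retained_intron took 3.63% of the counts in the control cytoplasm and 3.45 and 3.39% in the RNAi cytoplasms. All nuclei were above that, at 4.33 to 5.92%, so the nuclear side is not particular to these genes. ENST00000293880 of SSRP1, annotated with retained introns, was at 1.504 and 1.36 CPM in the RNAi cytoplasms and 4.29, 5.82 and 5.32 CPM in RNAi nuclei, a log2 difference of 1.90 (FDR = 0.00655).

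**Figure D4:**
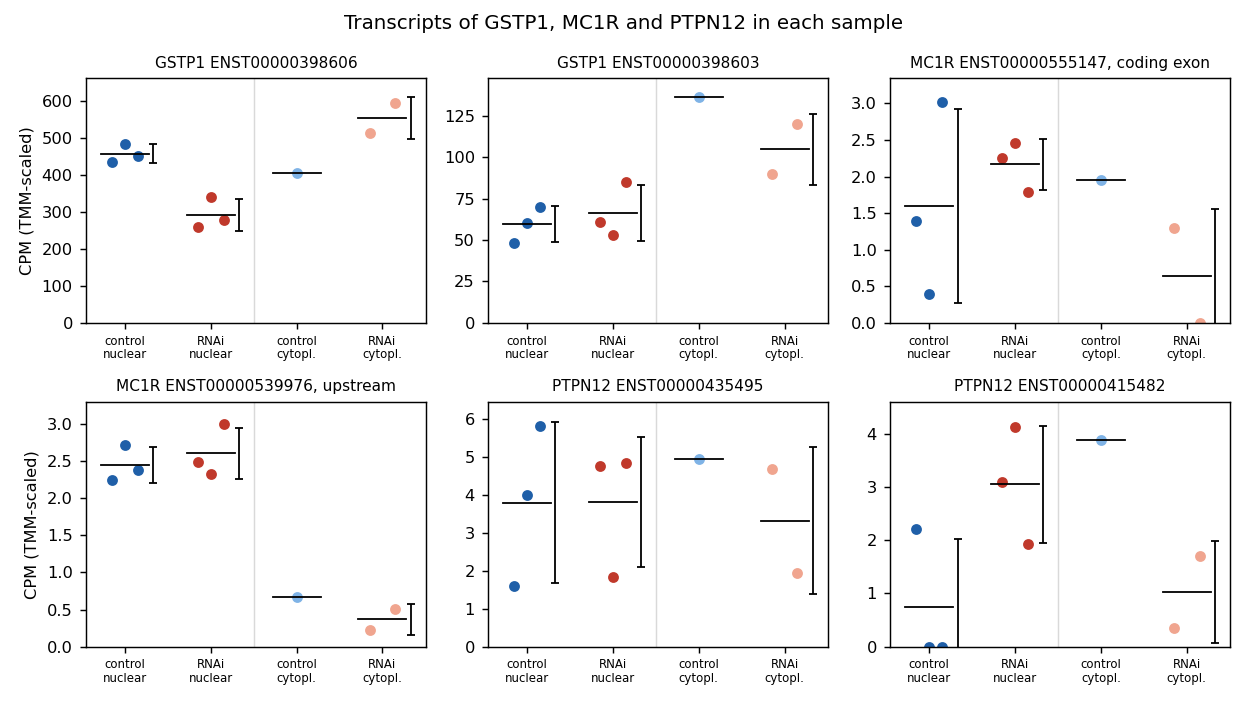
CPM of 6 isoforms of GSTP1, MC1R and PTPN12 (y axes, linear and from 0, own scale for each) in the 9 libraries (points) of the 4 groups (x axes), with group means and SD bars cut at the axis. ENST00000398606 of GSTP1 is at 258.7 to 341.4 CPM in RNAi nuclei, below the 435.5 to 485.6 CPM of control nuclei, and ENST00000415482 of PTPN12 is at 0 in 2 of the 3 control nuclei.

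More member transcripts were called between fractions than between siRNAs. Between nucleus and cytoplasm 9 of 29 member transcripts were called in control cells (6 higher and 3 lower in the nucleus), against 31.3% of all tested transcripts, and 17 in RNAi cells (11 higher and 6 lower), against 42.7%. Some of those higher in the nucleus, such as ENST00000467591 and ENST00000602061, passed the filter on low counts through nuclei alone, which favours this direction. At the gene level 3 of 7 were called in control cells (MC1R higher, PTPN12 and SSRP1 lower), against 50.8% of all genes, and 5 in RNAi cells (PTPN12 and MC1R higher, GSTP1, TUBB3 and SSRP1 lower), against 57.8%. Between siRNAs no member transcript was called in the ratio (5 at an unadjusted p under 0.05), against 0.969% of all, or in the cytoplasm (4 at an unadjusted p under 0.05), against 2.60%. The SYMPK transcript ENST00000599460 was higher in the nucleus by a log2 difference of 2.99 in control cells (FDR = 0.00187) and 3.42 in RNAi cells (FDR = 0.000196). ENST00000593504 was higher by 1.55 (FDR = 0.0103) and 1.98 (FDR = 0.000884). ENST00000245934 had a difference of -1.58 in RNAi cells (FDR = 0.00059).

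The usage test between nucleus and cytoplasm of RNAi cells called 3 of 6 member genes, GSTP1, SYMPK and SSRP1, against 46.7% of all genes tested, and 9 of 27 transcripts, against 16.7%. This test was added after seeing the data. The 8 transcripts whose part of the gene was higher in the nucleus were ENST00000593504, ENST00000599460, ENST00000600237 and ENST00000602061 of SYMPK, ENST00000467591, ENST00000489040 and ENST00000494593 of GSTP1, and ENST00000293880 of SSRP1. The 1 with a lower part was the spliced SYMPK transcript ENST00000245934. For SYMPK the usage test did not pass in the ratio change (gene FDR = 0.303) or between nuclei (gene FDR = 0.696).

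**Figure D5:**
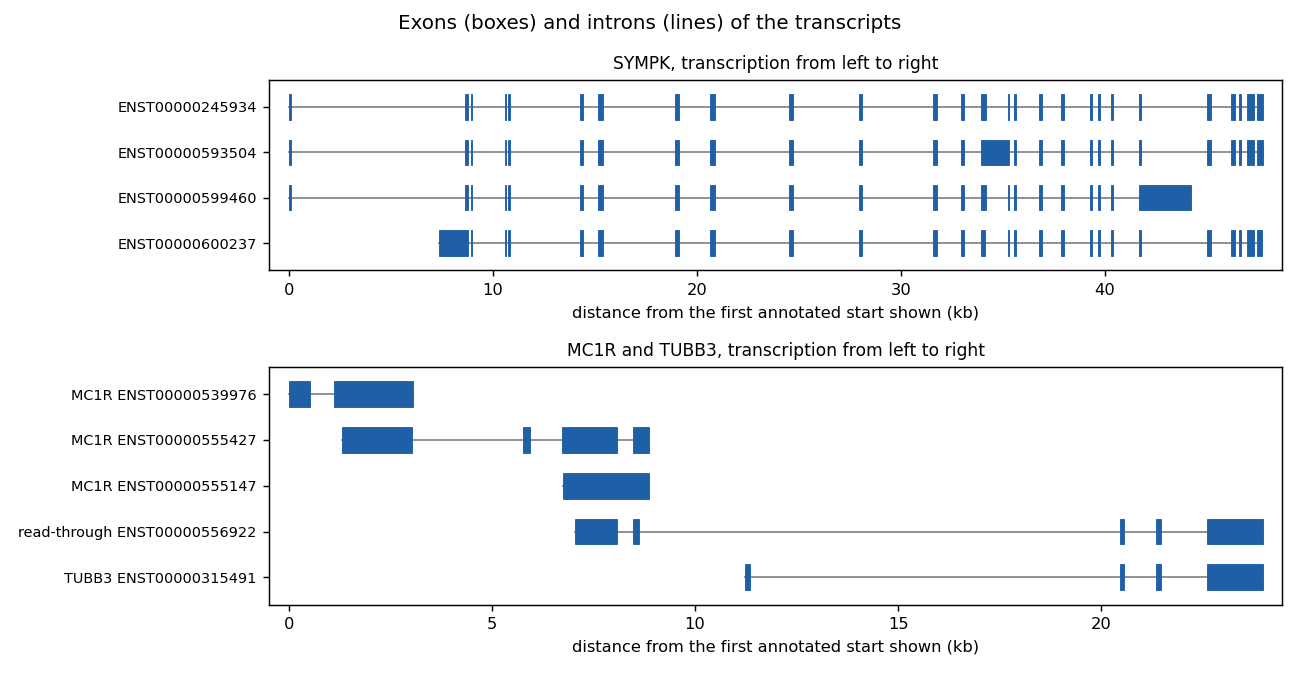
Exon maps of 4 SYMPK transcripts and of the MC1R, TUBB3 and read-through transcripts, each drawn to scale from left to right in the direction of transcription (x axis, distance from the first start shown, kb), with boxes for exons and lines for introns. SYMPK ENST00000599460 ends within intron 22, ENST00000593504 has 1 exon across intron 14, and the read-through transcript joins MC1R to the TUBB3 exons.

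MC1R, the melanocortin 1 receptor that controls pigment type in melanocytes, was near the lower limit of what these libraries measure. The gene was at 2.63 CPM in the control cytoplasm, 1.91 and 0.897 CPM in the RNAi cytoplasms, 4.34, 4.11 and 5.41 CPM in control nuclei and 6.83, 5.33 and 5.67 CPM in RNAi nuclei. All nuclei were above all cytoplasms, by a log2 difference of 0.81 in control cells (FDR = 0.0817) and 2.01 in RNAi cells (FDR = 0.000345). The ratio change of 1.20 did not pass (SE 0.469, FDR = 0.125, 95% interval 0.16 to 2.24), nor did the nuclear change of 0.37 (FDR = 0.391) or the cytoplasmic change of -0.83 (FDR = 0.180). Without RNAi cytoplasmic replicate 1 the ratio change was 1.94 (FDR = 0.0483) and the cytoplasmic change -1.57 (FDR = 0.0490), and both were called. The difference between control nucleus and cytoplasm was not called without control nuclear replicate 3 (0.67, FDR = 0.184) or RNAi nuclear replicate 3 (0.82, FDR = 0.107).

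A transcript without the MC1R coding exon held much of the MC1R counts. It held more than the coding transcript ENST00000555147 on average over the libraries but less in 4 of the 9. The 2 protein_coding transcripts together took 74.53% in the control cytoplasm. Their means were 65.75% in RNAi cytoplasms, 45.87% in control nuclei and 55.62% in RNAi nuclei. ENST00000539976, annotated as retained_intron, lies at chr16:89978527-89981576 on the plus strand, wholly upstream of the coding exon. It shares sequence with a transcript of the neighbouring gene TCF25 and lies within the span of the same-strand lncRNA gene ENSG00000267048. It held 43.3% of the MC1R counts, at 0.669 CPM in the control cytoplasm, 0.222 and 0.511 CPM in the RNAi cytoplasms, 2.25, 2.73 and 2.39 CPM in control nuclei and 2.49, 2.33 and 3.00 CPM in RNAi nuclei. It was higher in every nucleus than in every cytoplasm, with a log2 difference of 2.78 in RNAi cells (FDR = 0.00425), and its nuclei overlapped between siRNAs.

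ENST00000555147, which holds the coding exon (chr16:89985270-89987380, plus strand) and 38.9% of the counts, was at 1.96 CPM in the control cytoplasm, 1.30 and 0 CPM in the RNAi cytoplasms, 1.39, 0.395 and 3.02 CPM in control nuclei and 2.26, 2.46 and 1.78 CPM in RNAi nuclei. Control and RNAi nuclei overlapped, both RNAi cytoplasms were below the control cytoplasm, and its ratio change was 1.99 (FDR = 0.719). The sequence used for it in the files was 3099 nt long, against 2111 nt in the annotation used here. ENST00000555427 held 17.8%, at 0 CPM in the control cytoplasm, 0.394 and 0.387 CPM in the RNAi cytoplasms, 0 to 0.991 CPM in control nuclei and 0.535 to 2.09 CPM in RNAi nuclei. With protein_coding transcripts alone the MC1R ratio change was 1.54 (FDR = 0.264).

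TUBB3, the neuronal class III beta tubulin, lies downstream of MC1R at chr16:89987800-90005169 on the same strand. It was at 28.2 CPM in the control cytoplasm, 44.6 and 42.3 CPM in the RNAi cytoplasms, 18.8, 22.1 and 21.95 CPM in control nuclei and 20.1, 24.6 and 20.1 CPM in RNAi nuclei. Both RNAi cytoplasms were above every other library, and the nuclei overlapped. The cytoplasmic change was 0.62 (SE 0.179, FDR = 0.0347), a rise of 1.54-fold, the nuclear change 0.04 (FDR = 0.884) and the ratio change -0.58 (SE 0.215, FDR = 0.109). The cytoplasmic call did not hold with library sizes alone (log2 change 0.37).

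ENST00000315491 held 91.2% of the TUBB3 counts, at 26.3 CPM in the control cytoplasm, 43.6 and 40.5 CPM in the RNAi cytoplasms, 17.6, 19.1 and 18.5 CPM in control nuclei and 17.3, 21.8 and 19.02 CPM in RNAi nuclei. It had the same order of libraries by fraction as the gene, but its cytoplasmic change of 0.58 did not pass at the transcript level (FDR = 0.220). Of the 14 TUBB3 transcripts in the files 2 were tested, with 96.2% of the counts, and 4 were at 0 in every library. TUBB3 and GSTP1 belong to families of related sequence, and salmon shares reads that match several members between them by estimate.

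The read-through transcript ENST00000556922 (chr16:89985573-90002500, 5 exons) was rare, with 73.6 estimated counts over the 9 libraries. It was at 0.318 CPM in the control cytoplasm, 0 and 0 CPM in the RNAi cytoplasms, 0.227, 0.744 and 1.80 CPM in control nuclei and 1.19, 0.274 and 0.997 CPM in RNAi nuclei. The nuclei overlapped between siRNAs. A count of 0 allows up to 3 counts, which is 0.234 and 0.328 CPM in the RNAi cytoplasms. The RNAi nuclear mean of 0.821 CPM was at least 6.01-fold higher than 3 counts over the RNAi cytoplasmic group as a whole, which is 0.137 CPM, and edgeR called the difference (FDR = 0.0365). RNAi nuclear replicate 2, at 0.274 CPM, was below the limit of 1 of the RNAi cytoplasms. These limits cover counting error only. The transcript passed the filter of at least 10 counts in at least 3 libraries through nuclei alone, so its nuclear side is partly set by that filter. When its counts were added to both genes, an alternative chosen after seeing the data, the ratio changes were 1.29 for MC1R (FDR = 0.136) and -0.57 for TUBB3 (FDR = 0.112).

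The relatives and partners of the members were counted the same way, against the 18.2% of all genes called in the ratio and their median of -0.05. Of 18 tubulins tested, 4 were called lower in the ratio and none higher, TUBB2B (-0.54), TUBB (-0.52), TUBB4A (-0.59) and TUBA4A (-0.53), with a list median of -0.36, and in the cytoplasm 5 were called higher, with a median of 0.47, where 24.6% of all genes were called in either direction. With library sizes alone no tubulin was called in the ratio (median -0.08) and 1 was called higher in the cytoplasm. Of 12 glutathione S-transferases tested, GSTP1 and GSTZ1 (-0.60) were called lower, with a median of -0.35, and neither was with library sizes alone. Of 14 non-receptor tyrosine phosphatases tested, 6 were called higher, among them PTPN13 (2.25), PTPN11 (1.02), PTPN2 (0.85) and PTPN12, and 3 lower, PTPN6 (-2.34), PTPN23 (-0.87) and PTPN18 (-0.56), with a median of 0.49. The phosphatases thus moved both ways, although with library sizes alone 6 were called higher and none lower, where 2236 of all genes were called higher and 164 lower.

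Of 16 TFIID subunits tested, TAF4B (1.28), TAF2 (1.16) and TAF1 (0.77) were called higher and none lower, with a median of 0.23, while TAF7 itself was not called. Of symplekin and its partners in cleavage and polyadenylation, 12 genes tested in all, edgeR called none, and SYMPK itself was the 1 gene at an unadjusted p under 0.05, with a list median of -0.02. Of the 12 FACT and histone chaperone genes tested, NAP1L1 (0.63) and ASF1A (1.32) were called higher and CHAF1A (-0.57) lower. SUPT16H, the partner of SSRP1 in FACT, had a cytoplasmic change of -0.55 (FDR = 0.00909) and a ratio change of 0.40 (FDR = 0.0911), under the threshold of 0.5. MC1R was the 1 melanocortin receptor of 5 that passed the filter on low counts.

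By Pearson's r of log2(CPM + 0.5) over the 9 libraries, among 10267 genes of at least 5 CPM on average, the pattern of PTPN12 was most like that of RPS6KB1 (0.976) and RCOR3 (0.967), and that of TAF7 was most like GOPC (0.969) and RRN3 (0.909). GSTP1 was most like RASA3 (0.976) and PCYT2 (0.972), SYMPK most like ACAD9 (0.973) and AURKB (0.951), and MC1R most like GOLGA8A (0.983) and GCLC (0.981). TUBB3 was most like NXN (0.988) and ORC1 (0.986), and SSRP1 most like RNF187 (0.996) and POLR2C (0.995). These are descriptions over libraries that share 4 groups, depth and scaling.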

How the data were processed

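RNA-seq of nuclear and cytoplasmic fractions of HEK293 cells was analysed in 9 libraries, grouped by the siRNA and fraction in their labels. The libraries were made from poly(A) RNA with a stranded kit (SENSE mRNA-Seq, Lexogen). The authors trimmed reads with cutadapt, merged lanes and ran salmon (version not given in the sources used here) against Ensembl transcripts of hg19 with non-coding RNAs, and deposited per transcript an estimated count, without normalization between samples, and a TPM value, divided by effective length and scaled to the same total in every library. The deposited effective lengths, in nucleotides, served the length offset alternative.

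Of 215170 transcripts, 183122 (85.1%) were matched by identifier to 56347 genes of a GRCh37 annotation. The rest entered the transcript tests and their TMM factors but were not summed into any gene or tested for usage. Sequences come from the GRCh37 reference. The estimated counts, summed per gene or kept per transcript, were rounded and tested with edgeR 4.0.16 (R 4.3.3, TMM, quasi-likelihood, Benjamini-Hochberg) in 1 fit of the 4 groups with 5 residual degrees of freedom, over features with at least 10 counts in at least 3 libraries. The single control cytoplasmic library is assumed to vary like the replicated groups. Isoform CPM values use the gene-level library sizes, so that isoforms sum to their gene, while transcript tests use their own TMM factors. Transcript usage was tested with diffSpliceDGE. The scripts were tested on simulated counts. Of the 64 transcripts 29 were tested, holding 99.76% of the counts, and 9 were at 0 in every library. A further 8 annotated transcripts of these genes were not used here. Transcripts with 5% or more of the counts of their gene, at most 6 a gene, and the read-through are named, and some others after their values were seen. Alternatives used DESeq2 1.42.0 and limma 3.58.1 on log2(TPM + 1) and log2(TPM + 0.1). The 7 genes and the lists were chosen with earlier results of these data known. Replicates correlated at 0.9723 to 0.9861 and no pair agreed within sampling noise.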

Additional observations from a re-analysis of the deposited data

Results flagged for a closer look

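PTPN12 and GSTP1 stood out because the effect of the siRNAs differed between the nucleus and the cytoplasm by the interaction test of edgeR's fit. For PTPN12 the log2 change was 0.25 between nuclei and -1.14 between cytoplasms, a difference of 1.39 (FDR = 0.0235), and for GSTP1 it was -0.52 and 0.28, a difference of -0.80 (FDR = 0.0268). All 3 RNAi nuclei were below all 3 control nuclei for GSTP1, and both RNAi cytoplasms were below the single control cytoplasm for PTPN12. No group held 4 or more libraries, so no library could be tested for standing apart from its group.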

How the results depend on the processing

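Genes called in the ratio change numbered 2953 (1680 higher, 1273 lower), 1899 at an FDR of 0.05, 1783 with the length offset, and 1074 and 1297 with limma on log2(TPM + 1) and log2(TPM + 0.1). The split was 2236 higher and 164 lower with library sizes alone, 1044 and 30 or 1237 and 60 with limma, and 1636 and 794 with at least 10 counts in every library. The median of all genes moved from -0.05 to 0.23 with library sizes alone and to 0.21 and 0.30 with limma. Between nuclei 792 genes became 390 at an FDR of 0.05, 490 with library sizes alone, 1306 with no filter, 174 and 22 with limma, 440 with the length offset and 512 with protein_coding transcripts. Between cytoplasms 3984 became 1495 and 1898 with limma. Between fractions, 8217 genes in control cells became 5163, and 9350 in RNAi cells became 5776, with protein_coding transcripts, and the latter 6039 with at least 10 counts in every library. Transcripts called in the ratio numbered 493, but 2 at an FDR of 0.05, 2559 with DESeq2, 219 with no filter, and 21 and 282 with limma. Between nuclei 0 became 1403 with DESeq2, 42 with no filter, 406 with at least 10 counts in every library, and 81 and 93 with limma. Between cytoplasms 1321 became 291 at an FDR of 0.05, 3589 with DESeq2, 398 with no filter, and 17 and 361 with limma. The cause of these differences was not tested.

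The PTPN12 ratio change kept its direction but lost its call with limma on log2(TPM + 1) (1.38, FDR = 0.111), and its nuclear change was -0.019 with the length offset. The GSTP1 ratio call was lost with library sizes alone (-0.51) and with limma (-0.42 with either pseudocount), where its cytoplasmic change was -0.048 with either. Its nuclear call was lost with library sizes alone (-0.50), at least 10 counts in every library (-0.48), protein_coding transcripts (-0.49) and limma (-0.47). The SYMPK ratio change was called with protein_coding transcripts (-0.53, FDR = 0.0850) and was 0.024 and 0.025 with limma, and its cytoplasmic change was -0.00074 with library sizes alone and -0.13 with limma at either pseudocount. The MC1R ratio change was called with library sizes alone (1.47, FDR = 0.0755). TUBB3 lost its cytoplasmic call with library sizes alone (0.37) and limma (0.30 and 0.31), and its nuclear change was -0.015 and -0.016 with limma and -0.077 with the length offset. TAF7 was called lower in the cytoplasm with library sizes alone (-0.72) and with at least 10 counts in every library (-0.53). The SSRP1 ratio change was 0.14 with library sizes alone and 0.18 with limma at either pseudocount, that of ENST00000278412 was 0.10, 0.16 and 0.17, and that of ENST00000555427 was 0.070 with limma on log2(TPM + 1). Leaving the read-through transcript out of both genes changes nothing, since the annotation gives it a gene of its own.

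Leaving out each library in turn, the counts ran from 1921 to 3439 genes and 0 to 781 transcripts in the ratio, 52 to 1071 genes and 0 to 1 transcripts between nuclei, and 1 to 1611 transcripts between cytoplasms. The GSTP1 nuclear change ran from -0.59 to -0.45. The MC1R ratio change ran from 0.84 to 1.94 and was called without RNAi cytoplasmic replicate 1, and that of TUBB3 from -0.68 to -0.50, called without control nuclear replicate 1 (FDR = 0.0814) or RNAi nuclear replicate 2 (FDR = 0.0766). Changes of sign occurred in the nuclear changes of TAF7 (-0.13 to 0.051) and TUBB3 (-0.059 to 0.10) and in the ratio changes of ENST00000248594 (-0.19 to 0.71), ENST00000598155 (-2.68 to 0.38) and ENST00000598329 (-0.036 to 2.38).

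With the replicate number as a block (replicate block), edgeR called SYMPK (-0.50, FDR = 0.0429), MC1R (1.43, FDR = 0.0580) and TUBB3 (-0.65, FDR = 0.0572) in the ratio and MC1R in the cytoplasm (-1.07), no transcript in the ratio or between cytoplasms (0 and 0), and gave a cytoplasmic change of 0.034 for SSRP1. In their deviations from the group means, same-numbered control and RNAi nuclei correlated at 0.185, 0.11 and 0.042, control nuclei and RNAi cytoplasms at 0.197 and 0.194, and RNAi cytoplasms and nuclei at 0.1 and 0.037. All were positive, but not every one was over 0.1, and RNAi nuclear replicate 3 correlated better with control nuclear replicate 2 (0.056) than with its own number, so the numbers are not taken to pair the libraries. Depth limits MC1R most, with 8.21 estimated counts in its lowest library, and the single control cytoplasmic library limits every ratio and cytoplasmic change.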
